A study of Rattus norvegicus with 10 samples.

Results

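Within each of 5 Wistar rats immunized with keyhole limpet hemocyanin that carried dinitrophenyl residues (DNP), the 50 heavy chain CDR3 sequences with the most reads were set against all CDR3s that were seen in exactly 1 read. Both sides were chosen by read number, with ties in alphabetical order, so the read numbers describe the sides and are no finding. The expanded side holds 250 CDR3s and the single-read side 66502, of 89888 CDR3s counted per animal in the DNP animals and 222901 in the whole series. Together both sides hold 66752 CDR3s. The comparison asks how the CDR3s that dominate the spleen repertoire differ, within the same animal, from those at its rare end. The animals received the antigen once in Freund's complete adjuvant and in 3 boosts in incomplete adjuvant. The other antigen in the series was recombinant human HuD, given to 5 other Wistar rats on the same schedule. Heavy chain transcripts were amplified from total RNA of a whole spleen cell suspension, with 1 library per animal. The primers covered IgG, IgA, IgD, IgE and IgM together, and the paper reports a majority of IgG reads that varied between subjects. The antibody class was not compared between the sides. No cells were sorted for antigen binding, so an expanded CDR3 is not known to bind DNP. More cells of a clone and more heavy chain RNA per cell cannot be told apart in these libraries, and the splenocyte label cannot be checked because the libraries hold immunoglobulin transcripts alone.

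A heavy chain variable domain is encoded by a rearranged IGHV, IGHD and IGHJ gene. The CDR3 spans the junctions of these genes, is the most diverse loop of the antigen binding site and often serves as the mark of a B-cell clone. The frameworks FR1 to FR4 hold the fold of the domain, whereas CDR1 and CDR2 are the other binding loops, encoded by the IGHV gene. After antigen contact, B-cell clones divide and mutate their variable domains in germinal centres, and plasma cells carry very large amounts of heavy chain transcript.

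The leading CDR3s are shown first, because most of the results below concern their composition. All sequences are amino acids in the authors' annotation, without the flanking cysteine and tryptophan, and each is named by its animal and its rank.
DNP1, rank 1: ARWTRYFDY.
DNP1, rank 2: VRWNSGHFDY.
DNP1, rank 3: ARGGDGIWFAY.
DNP2, rank 3: ARWSRYFDY.
DNP3, rank 1: ARHVLPLRVWDY.
DNP3, rank 2: ARWYNSGYYFDY.
DNP3, rank 3: ARWSSSHWYFDF.
DNP4, rank 1: ARWPGYNPPYAMDA.
DNP4, rank 2: TTDFERGY.
DNP4, rank 3: ARRRLPYWYFDF.
DNP5, rank 1: ARLRLEWEVRAMDA.
DNP5, rank 2: ARLGWHGWFAY.
DNP5, rank 3: TTFEGTNA.
Ranks 1 and 2 of DNP2 have 15 residues each and are given by length. Of these 13 printed sequences, 6 have tryptophan as the third residue, a feature taken up below.

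The abundance of the leading CDR3 ranged from 2077 to 4264 reads. ARWTRYFDY took 4264 of the reads of DNP1 (3.06%). ARHVLPLRVWDY took 3409 reads of DNP3, which was 5.62% of that smaller library. ARWPGYNPPYAMDA had 2991 reads in DNP4 and only 1.15% of its library, and ARLRLEWEVRAMDA had 2077 reads in DNP5 (2.27%). The 15-residue leader of DNP2 had 2248 reads (1.82%). The 50 expanded CDR3s held 31.9%, 24.3%, 46.7%, 22.7% and 27.3% of the productive reads of DNP1 to DNP5. The single-read CDR3s made up 61.2% to 78.9% of all CDR3s of an animal but 6.63% to 13.9% of its reads. Around the limit of the expanded side the values were close. ARLAWEEGFDY, rank 50 in DNP1, had 351 reads and the next CDR3, ASWSPIAPISTSNY, had 350. In DNP2, VKDLRGGSAFDY had 272 reads and ARWDHYIGFAY, just outside, had 262. In DNP3, a CDR3 of 17 residues had 207 reads and ASTYYGY had 203. The limit was higher in DNP4, the deepest library, where a CDR3 of 15 residues had 647 reads and ARHRAIAAIWDY had 637. In DNP5, ARNWAMDA had 235 reads and TTDIDYFHY had 232.

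**Figure D1:**
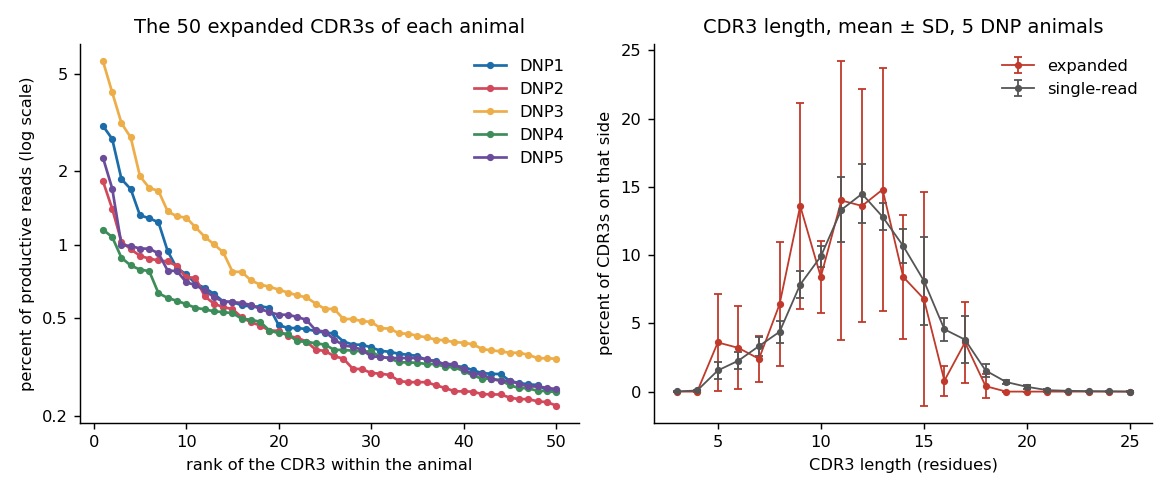
Left, percent of productive reads (log scale) of the 50 expanded CDR3s of each DNP animal against their rank. Right, percent of CDR3s at each length on the expanded and the single-read side, mean ± SD over 5 animals. The DNP3 line runs above the others, and the expanded CDR3s were shorter by 0.775 residues on average.

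The libraries differed in depth, from 60647 productive reads in DNP3 and 91649 in DNP5 to 123799 in DNP2, 139441 in DNP1 and 259834 in DNP4. A read is 1 sequence left after the authors collapsed sequenced copies by a molecular tag. The paper states that the random tag proved too short and that part of the CDR3 served as a further tag. How often different molecules of the same CDR3 shared a tag and were merged was not tested. Of the reads of a DNP animal, 82.1% to 87.8% rested on 1 copy. On the single-read side, 81.4% to 96.5% of the reads had 1 copy, against 64.1% to 75.6% on the expanded side. The part of copy number in the differences below was not tested beyond the alternatives given with them. The libraries of DNP2 and DNP5, and those of DNP3 and DNP4, also stood apart in the CDR3s they had in common, as described with the presence of CDR3s in other animals. Every library of the series was sequenced in the same run.

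IGHV3-1 had a larger share of the expanded than of the single-read CDR3s. Among the expanded CDR3s it was the gene of 10%, 26%, 10%, 24% and 10% in DNP1 to DNP5. Among the single-read CDR3s it was the gene of 5.14%, 8.98%, 3.43%, 5.27% and 2.52% in the same order. The expanded share was higher in 5 of 5 animals, with means of 16% ± 8.25 and 5.07% ± 2.48 (SD, n = 5), and every expanded value lay above every single-read value. The log2 fold change was 1.66 ± 0.29 (SE), with adjusted p = 0.000106 by edgeR's quasi-likelihood test with the animal as a block. Of 63 IGHV genes tested, 1 was higher (1.59%) and 0 were lower (0%) at an adjusted p of 0.05. In simulated data this test found 72% of genes raised 6-fold and 26% of genes lowered 6-fold, so drops were often missed there. The simulation gave all animals the same IGHV profile with random noise, and the changed genes were among the most used. It thus cannot give the rates for the real animals, whose IGHV shares varied widely. At an unadjusted p under 0.05, edgeR gave 4 higher and 6 lower genes. DESeq2 called 3 higher and 0 lower genes, and limma on log2(percent + 1) called 1 higher and 26 lower. Without the animal block, which treats both sides of an animal as unrelated, the fold change of IGHV3-1 was 1.66 with adjusted p = 0.193.

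None of the other leading IGHV genes passed the edgeR test, and some varied widely between animals. IGHV5-22 was the gene of 46% of the expanded CDR3s of DNP3 and of 2% to 12% in the other 4 animals. In DNP3 it also had 15.1% of the single-read CDR3s, and its adjusted p over the 5 animals was 0.101 in edgeR. IGHV3-3 had 4%, 6%, 0%, 6% and 12% of the expanded CDR3s in DNP1 to DNP5, against 1.24%, 2.31%, 1.05%, 2.15% and 2.39% of the single-read CDR3s. Its log2 fold change was 1.61 ± 0.48 with adjusted p = 0.058 in edgeR, and it passed without DNP3, where no expanded CDR3 used it (adjusted p = 0.0082). IGHV3-3 also passed in edgeR with 100 CDR3s (adjusted p = 0.00435), with single-read CDR3s that had no neighbour at 1 substitution (0.0422), with ranking by tag ends (0.0297) and against single reads of at least 2 copies, where its log2 fold change was 3.3 (6.85e-05). IGHV5-31 was level, at 8% ± 5.48 and 8.02% ± 4.26. IGHV5-7, IGHV5-25 and IGHV5-20, the genes with the largest single-read shares, had lower mean shares among the expanded CDR3s. IGHV5-7 had 6.4% ± 2.97 against 10.6% ± 2.55 and was lower in 5 of 5 animals (adjusted p = 0.261, edgeR). IGHV5-25 had 4.8% ± 2.28 against 9.71% ± 2.43, also lower in 5 of 5 animals (adjusted p = 0.101, edgeR). IGHV5-20 had 5.6% ± 4.77 against 9.87% ± 2.6 and was lower in 4 of 5 (adjusted p = 0.29, edgeR).

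**Figure D2:**
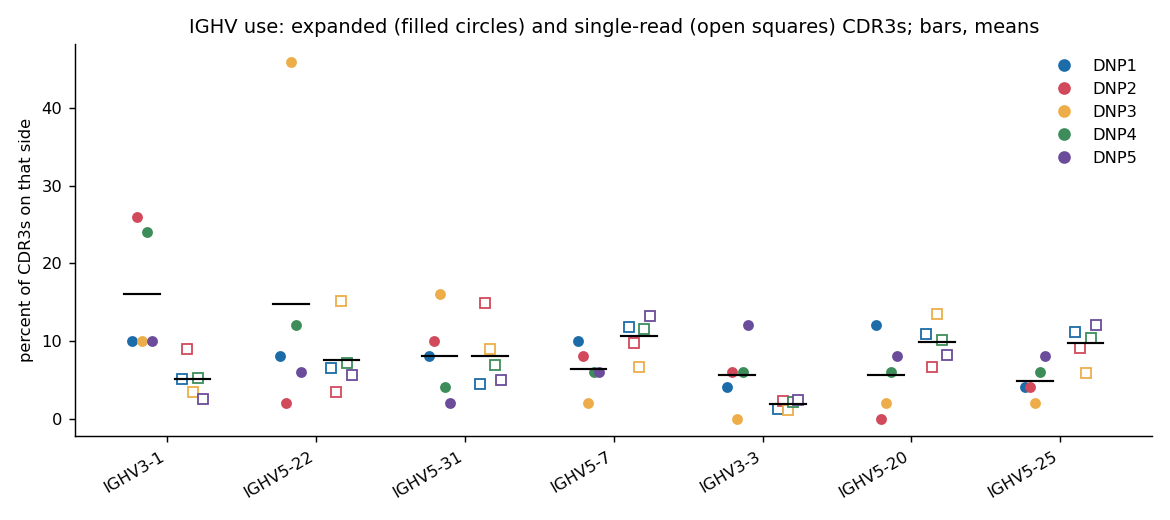
Percent of CDR3s that used each IGHV gene, for the 5 DNP animals on the expanded side (filled circles) and the single-read side (open squares), with bars at the means. The genes are the 5 with the highest mean share on each side, some in both groups of 5. IGHV3-1 is higher on the expanded side in each animal, and IGHV5-22 stands out in DNP3 at 46%.

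Tryptophan was the residue that differed most between the sides. It made up 4.92% of the CDR3 residues on the expanded side of DNP1, and 3.34%, 7.04%, 5.55% and 3.41% in DNP2 to DNP5. The single-read side had 2.58%, 2.41%, 3.14%, 2.68% and 2.55% in the same order, so the expanded value was higher in 5 of 5 animals and the ranges did not overlap. The mean difference was 2.18 ± 0.47 percentage points (SE), with adjusted p = 0.000318 by limma with the animal as a block. This test pools the spread of all 20 residues, so SE and p do not rest on the 5 tryptophan differences alone. Of 20 residues, 1 was higher (5%) and 0 were lower (0%) at an adjusted p of 0.05 in limma, while at an unadjusted p under 0.05 limma gave 2 higher and 2 lower residues. With the 20 most abundant CDR3s in place of 50 the difference was 2.32, with adjusted p = 0.348. Proline was higher in 5 of 5 animals, at 4.05% ± 1.1 against 3.1% ± 0.43, but did not pass (adjusted p = 0.205, limma). Phenylalanine had 7.55% ± 1.04 against 6.57% ± 0.46 (adjusted p = 0.44, limma), and aspartate 8.78% ± 1.17 against 9.98% ± 0.33 (adjusted p = 0.44, limma). Against single reads of at least 2 copies all of these passed in limma, with differences of 1.93 points for proline, 2.21 for phenylalanine and −3.21 for aspartate. That set kept from 141 single-read CDR3s in DNP3 to 4013 in DNP4, and the expanded side was not filtered by copies. With 100 CDR3s the proline difference was 0.254 points. Methionine and glutamate were each lower in 5 of 5 animals, at 1.09% against 1.81% and 1.14% against 1.89% (both adjusted p = 0.156, limma). Tyrosine, the most frequent residue of the CDR3s, had 16.8% ± 2.41 on the expanded and 17.1% ± 0.88 on the single-read side.

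Part of the tryptophan, less than that at other positions, stood at the third position of the CDR3, just after the residues that end the IGHV gene. This position was looked at after the leading sequences had been seen, so its values are given with no test. Tryptophan was at the third position in 18%, 14%, 30%, 28% and 8% of the expanded CDR3s of DNP1 to DNP5. It was there in 3.96%, 2.1%, 8.39%, 3.58% and 1.92% of their single-read CDR3s. In the HuD animals the expanded CDR3s had it in 0% to 6% and the single-read CDR3s in 1.28% to 1.5%. The 49 expanded DNP CDR3s with this residue used IGHV3-1 in 23 cases and IGHV5-22 in 17, and the rest used IGHV1-43 and IGHV5-58 in 3 cases each and IGHV2-15, IGHV3-3 and IGHV5-20 in 1 case each. Among the expanded CDR3s of IGHV3-1, 23 of 40 had it, against 609 of 3767 among the single-read CDR3s of the same gene. By animal these expanded CDR3s were 1 of 5, 7 of 13, 4 of 5, 10 of 12 and 1 of 5 in DNP1 to DNP5. The single-read shares were 11.9%, 12.7%, 32.6%, 20.9% and 14.4% in the same order.

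A group of 9-residue CDR3s of one pattern recurred on the expanded side. In this pattern, also chosen after its sequences were seen, an arginine and tryptophan at the second and the third position were followed by any residues at the next positions and by YFDY, the end of many IGHJ2 CDR3s here. It was found in 12 of 250 expanded DNP CDR3s (4.8%), with at least 1 in each animal, and in 66 of 66502 single-read CDR3s (0.0992%). Of the 12, 11 used IGHV3-1. Some of its members are shown to set the varying positions side by side.
DNP1, rank 1, and DNP5, rank 13: ARWTRYFDY.
DNP2, rank 33: ARWVRYFDY.
DNP3, rank 4: ARWTYYFDY.
DNP3, rank 11: ARWVYYFDY.
DNP4, rank 6: ARWSDYFDY.
DNP4, rank 15: ARWYNYFDY.
In the HuD animals the pattern was in 0 of 250 expanded CDR3s, which allows a share of up to 1.2%. It was in 18 of 105100 single-read HuD CDR3s (0.0171%), and its member ARWTRYFDY had 181 reads in HuD5, outside the expanded side there. Longer CDR3s of IGHV5-22 with this tryptophan, chosen in the same way, also resembled each other between animals. ARWYNSGYYFDY had 2541 reads in DNP3, where ARWFNSGYYFDY had 1154 and ARWYSSGYYFDY had 564. ARWYNWGYYFDY had 854 reads in DNP4, and VRWYNSGYYFDY had 1005 in DNP3 and 451 in DNP5.

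Expanded CDR3s had a lower mean length than single-read CDR3s in each animal. The mean length on the expanded side was 10.98, 11.98, 11.64, 11.54 and 9.96 residues in DNP1 to DNP5. The single-read means were 11.64, 12.54, 12.12, 12.16 and 11.52 residues in the same order. Medians were 11, 13, 12, 12 and 10 residues on the expanded side and 12, 13, 12, 12 and 11 on the single-read side. They were thus equal in DNP2, DNP3 and DNP4. The expanded mean was lower in 5 of 5 animals, by 0.775 ± 0.443 residues (SD, n = 5), with p = 0.0625 by an exact sign-flip permutation test. This two-sided p is the smallest that 5 animals allow, so no sign-flip test here could pass 0.05. The difference was −1.56 residues in DNP5 and lay between −0.659 and −0.477 in the other animals. The expanded CDR3s ranged from 5 to 18 residues, and 29 of 250 had 15 residues or more. On the single-read side lengths ran from 1 to 54 residues. CDR3s of 15 residues or more made up 2% to 30% of the expanded and 13.8% to 27.3% of the single-read CDR3s, and in DNP2 this share was higher on the expanded side.

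The IGHJ gene encodes the end of the CDR3 and FR4, and its use also differed between the sides. IGHJ4, the gene of CDR3s such as ARNWAMDA, had 10%, 4%, 0%, 10% and 24% of the expanded CDR3s in DNP1 to DNP5. It had 20.3%, 14.2%, 15.1%, 20.4% and 24.2% of the single-read CDR3s. The expanded share was lower in 5 of 5 animals, although the difference was −0.247 percentage points in DNP5, and the mean difference was −9.27 ± 5.46 points (exact sign-flip p = 0.0625, adjusted over 4 genes 0.0833). IGHJ2, the most used gene, had 56.4% ± 4.34 of the expanded and 50.9% ± 2.99 of the single-read CDR3s. IGHJ3 had 23.6% ± 3.29 and 19.5% ± 1.38. Both were higher on the expanded side in 5 of 5 animals (exact sign-flip p = 0.0625 each, adjusted 0.0833). Against single reads with at least 2 copies, however, the IGHJ2 difference turned to −2.18 points. IGHJ1 went both ways, with 16% of the expanded CDR3s in DNP3 and DNP4 and 0% in DNP5, and a mean difference of −0.29 ± 6.43 points (exact sign-flip p = 1). Among CDR3s of IGHJ2 alone the mean length difference between the sides was −0.51 residues, and within IGHV genes it was −0.814 residues.

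The net charge of the CDR3, counted as lysine and arginine minus aspartate and glutamate, was higher on the expanded side in 5 of 5 animals. The expanded means were −0.14, −0.26, 0.08, −0.08 and 0.02 in DNP1 to DNP5, and the single-read means were −0.276, −0.268, −0.363, −0.339 and −0.343. DNP2 hardly differed, with 0.00765, whereas DNP3 differed by 0.443. The mean difference was 0.242 ± 0.174 charges per CDR3 (exact sign-flip p = 0.0625). The mean hydropathy on the Kyte-Doolittle scale, in which higher values are more hydrophobic, was −0.704 ± 0.058 on the expanded and −0.73 ± 0.032 on the single-read side. It was higher in 4 of 5 animals (exact sign-flip p = 0.438).

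**Figure D3:**
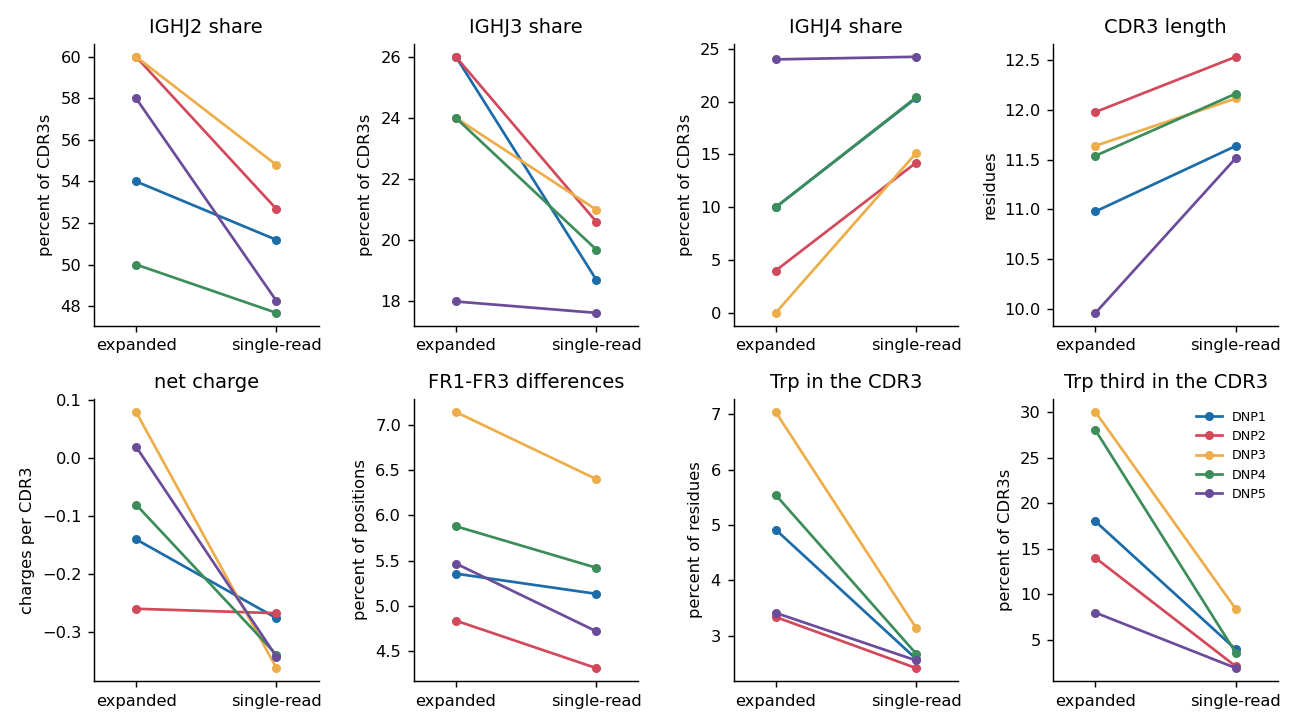
Values of the expanded and the single-read side joined by a line for each of 5 DNP animals, in percent of CDR3s for the IGHJ genes, residues for length, charges per CDR3, percent of positions for FR1-FR3, and percent of residues or of CDR3s for tryptophan. The axes do not all start at 0. Each line falls to the single-read side except those of IGHJ4 and length, which rise, as for IGHJ4 from 0% to 15.1% in DNP3.

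Reads of expanded CDR3s departed more from the usual framework of their IGHV gene in each animal. The usual sequence was the most frequent residue at each position in the reads of the HuD animals, since no germline sequence was used. In FR1 to FR3 the reads of an expanded CDR3 differed at 5.36%, 4.84%, 7.15%, 5.88% and 5.47% of positions in DNP1 to DNP5. The single-read values were 5.13%, 4.31%, 6.4%, 5.42% and 4.72%. The expanded value was higher in 5 of 5 animals, by 0.54 ± 0.219 points (exact sign-flip p = 0.0625), while the animals differed from each other by more than the sides did. DNP3 was highest on both sides. Restricted to reads with at least 2 copies the difference was 1.04 points, and against single reads of at least 2 copies it was 1.67 points. It was 0.361 points as a mean within IGHV genes and 0.339 points with only reads of the main IGHV gene (exact sign-flip p = 0.125). It changed sign when the most frequent FR1 to FR3 sequence of each expanded CDR3 stood for all its reads (−0.384 points, exact sign-flip p = 0.188). In CDR1 and CDR2 the expanded CDR3s differed at 17.2% ± 2.27 of positions and the single-read CDR3s at 16.3% ± 1.44, a difference of 0.884 points, higher in 3 of 5 animals (exact sign-flip p = 0.375). It was 0.373 points without DNP5 and 1.45 without DNP4, 2.05 within IGHV genes and 0.398 with only reads of the main IGHV gene. With reads of at least 2 copies it changed sign, to −1.55 points.

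The reads of an expanded CDR3 carried many different framework sequences. Among 200 of its reads, the expected number of different FR1 to FR3 amino acid sequences had medians of 113, 125, 103, 127 and 89.7 in DNP1 to DNP5. The most frequent FR1 to FR3 sequence held a median of 23.5%, 21.5%, 19.8%, 18% and 34.5% of the reads of a CDR3, and 50% or more for 16 of 250 CDR3s. FR4, which the IGHJ gene encodes, was the least varied region, with a mean of the medians of 5.84 ± 0.722 variants in 200 reads. FR1 had 42.4 ± 1.11, FR2 41.8 ± 9.09 and FR3, the longest framework, 62 ± 11 variants. CDR1 had 38.6 ± 7.9 and CDR2 56.6 ± 7.04. These numbers count all reads, of which 64.1% to 75.6% on the expanded side rested on 1 copy. Variants were not counted again with reads of at least 2 copies, so the part of copying errors in them was not tested.

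**Figure D4:**
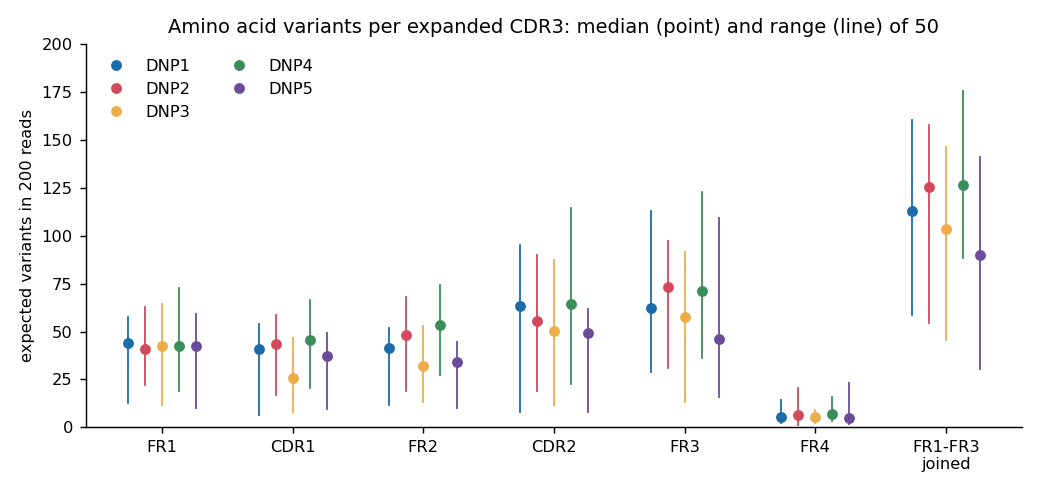
Expected number of different amino acid sequences of each region among 200 reads of an expanded CDR3, with a point at the median and a line over the range of the 50 CDR3s of each DNP animal. FR4 stays lowest, at a mean of 5.84 variants, and the joined FR1 to FR3 reach medians of 89.7 to 127.

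The number of frameworks per CDR3 spread widely within each animal. ARLRLEWEVRAMDA of DNP5 had the fewest of all, with 30.5 variants in 200 reads and 84.2% of its reads in 1 sequence. The fewest in DNP1 were those of its leader ARWTRYFDY, at 58.5 variants, with 50.9% of reads in 1 sequence. AHPSY (IGHV6-6) had 54.5 variants in DNP2, TRVTPFDY (IGHV10-4) 45.8 in DNP3 and ARWNIGTSTLDY (IGHV3-1) 88.6 in DNP4. The most varied CDR3s were short in 3 animals. ARPDY had 146 variants in DNP3 and 175 in DNP4, and AKPDY had 160 in DNP1, each with IGHV5-7 as the main gene. In DNP2 the most varied was AGRPPPTRGPFDY, with 158 variants, and in DNP5 AIQLGVFDY, with 141.

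Reads of the same CDR3 were also assigned to several IGHV genes. The IGHV gene named first differed among reads for each expanded CDR3, with a median of 10 to 19.5 genes per CDR3 and a median of 65.1% to 89.7% of reads in the main gene. The main gene held at least 90% of reads for 90 of 250 CDR3s and under 50% for 27. The 155 expanded CDR3s of the IGHV5 subgroup had a median of 66.7% of reads in the main gene, against 93.4% for the 54 of IGHV3 and 99.4% for the 10 of IGHV1. Genes of one IGHV subgroup are alike in sequence, and gene names within IGHV5 are to be read with care. What spread the reads of a CDR3 over several gene names was not tested. In the expanded reads 7.29% to 11.8% named several IGHV genes as equal matches, and in the single reads 12.9% to 20.4% did. Using only reads that name 1 gene, IGHV3-1 was still the gene called, with a log2 fold change of 1.4 (adjusted p = 0.0136, edgeR).

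Pairs of reads were also compared between expanded CDR3s and CDR3s with exactly 2 reads. A pair of reads of the same CDR3 had the same FR1 to FR3 in 8.96%, 7.32%, 9.05%, 5.81% and 17.8% of pairs for the expanded CDR3s of DNP1 to DNP5. For the 787 to 2377 CDR3s per animal with 2 reads it was 11.4%, 8.07%, 21%, 5.97% and 17.7%. The difference was −3.04 ± 5.06 points (exact sign-flip p = 0.125) and −0.818 points without DNP3. With reads of the main IGHV gene alone the expanded value was lower in 5 of 5 animals, at 16.8% ± 5.95 against 24.2% ± 6.52 (exact sign-flip p = 0.0625). A pair of reads named the same IGHV gene more often on the expanded side, in 61.8% ± 8.71 against 49.1% ± 13.3 of pairs (higher in 5 of 5 animals, exact sign-flip p = 0.0625). How reads of the same CDR3 came to differ was not tested.

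The libraries of DNP3 and DNP4, and those of DNP2 and DNP5, held many of each other's expanded CDR3s at low read numbers. Of the 50 expanded CDR3s of DNP4, 38 had a read in DNP3, and 36 of these had fewer than 10 reads there. Of the 50 of DNP3, 24 had a read in DNP4, 18 of them fewer than 10. Of the 50 of DNP5, 23 were in DNP2, and of the 50 of DNP2, 17 were in DNP5, with all but 1 in each direction under 10 reads. In the other 16 directions between DNP animals 0 to 10 were found, and in the 25 directions from a DNP to a HuD animal 0 to 4. The low-read copies in the 4 directions came to 185 reads, of which 82 (44.3%) carried the same tag as a read of that CDR3 in the animal where it was expanded. The different tag ends of these CDR3s filled on average 25.1% of the 4096 possible ends. In the other 16 directions between DNP animals 4 of 62 low reads (6.45%) had the same tag, with 13.4% of ends filled. In the directions from DNP to HuD animals 11 of 60 low reads (18.3%) had the same tag, with 21.5% of ends filled. The paper looked for index hopping and reports no reads that shared both sequence and tag between samples. The match given here was of tag and CDR3, not of the whole sequence. Whether RNA or reads passed between libraries was not tested here.

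**Figure D5:**
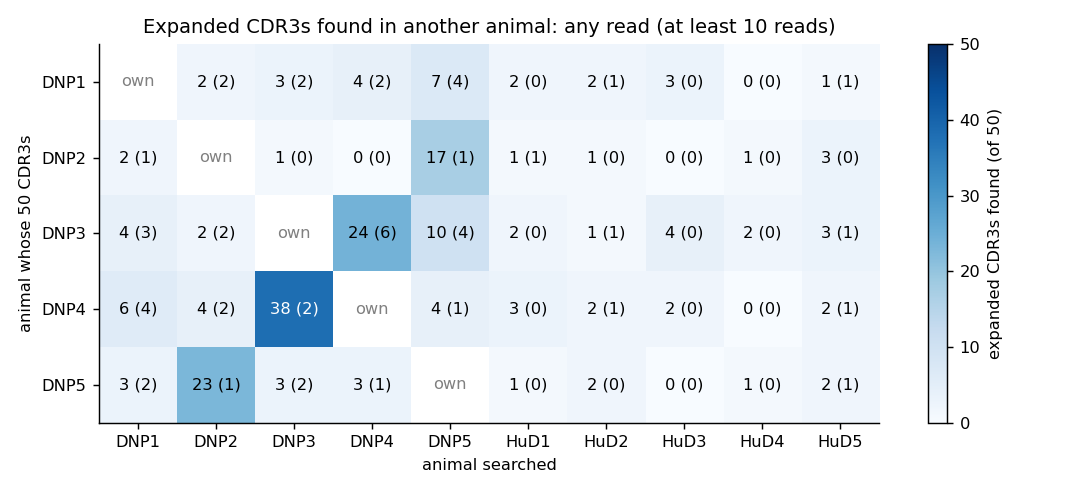
Number of the 50 expanded CDR3s of each DNP animal (rows) found with at least 1 read in each other animal (columns), with the number found with at least 10 reads in brackets. The cells of DNP3 with DNP4 and of DNP2 with DNP5 stand out, at 17 to 38 found and 1 to 6 with at least 10 reads.

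Expanded CDR3s were more often present in other animals than single-read CDR3s, also outside these 4 directions. A read in another DNP animal was found for 16%, 36%, 50%, 78% and 52% of the expanded CDR3s of DNP1 to DNP5, and for 3.48%, 2.15%, 7.32%, 2.09% and 3.83% of the single-read CDR3s. Leaving out the 4 directions, the shares were 15.2% ± 5.93 and 2.53% ± 0.837, higher in 5 of 5 animals (exact sign-flip p = 0.0625). With at least 10 reads required and the 4 directions counted again, the shares were 10% ± 5.66 and 1.24% ± 1.51. In a HuD animal, 11.2% ± 2.68 of the expanded and 3.28% ± 0.492 of the single-read CDR3s had a read (higher in 5 of 5, exact sign-flip p = 0.0625). With at least 10 reads required in the HuD animal, the shares were 3.2% ± 1.1 and 0.351% ± 0.0739. The sides were chosen by read number, and the part of read number in the presence in other animals was not tested. 3 CDR3s were among the 50 of more than 1 DNP animal, so the 250 are 246 different sequences. ARPDY had 2352 reads in DNP1, 397 in DNP3 and 858 in DNP4. ARWTRYFDY had 4264 reads in DNP1 and 559 in DNP5, with 54 in DNP2 and 181 in HuD5. VRWYNSGYYFDY had 1005 in DNP3 and 451 in DNP5.

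Some single-read CDR3s lay close to an expanded one of the same animal. A CDR3 at 1 substitution from an expanded CDR3 made up 4.28%, 2.91%, 8.66%, 2.87% and 3.48% of the single-read CDR3s of DNP1 to DNP5. At 1 substitution from any CDR3 with at least 2 reads were 25% to 37.1%. The leading CDR3 of each animal had 13 to 19 such single-read neighbours. The first in alphabetical order beside ARWTRYFDY was ARETRYFDY, with the change W3E, counted from 1 at the start of the CDR3. Beside ARHVLPLRVWDY it was ARDVLPLRVWDY (H3D), beside ARWPGYNPPYAMDA it was ARGPGYNPPYAMDA (W3G) and beside ARLRLEWEVRAMDA it was AILRLEWEVRAMDA (R2I). The neighbours of the 15-residue leader of DNP2 began with the change N5D. Related sequences were also found among the 50 themselves, which formed 40, 40, 30, 45 and 44 groups in DNP1 to DNP5 when CDR3s of the same IGHV gene, IGHJ gene and length with at least 80% identity were joined.

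In the HuD animals, taken as the other antigen of the series, expanded CDR3s were also shorter on average, more positive and richer in framework differences in 5 of 5 animals. The CDR3 length difference was −0.775 ± 0.443 in the DNP and −0.688 ± 0.508 residues in the HuD animals (p = 0.754 by an exact permutation test over 252 sets of animals, adjusted over 12 measures 0.926). For net charge the differences were 0.242 ± 0.174 and 0.262 ± 0.157 (exact permutation p = 0.833). For CDR1 and CDR2, with a usual sequence from all 10 animals, they were 1.05 ± 1.68 and 3.37 ± 0.484 points (exact permutation p = 0.0238, adjusted 0.143). For presence in another animal of the same antigen they were 42.6 ± 23 and 11.5 ± 3.24 points (exact permutation p = 0.0238, adjusted 0.143), and without the 4 directions the gap between antigens was 1.16 points. None of the 12 measures passed after adjustment in these exact permutation tests, and 2 had an unadjusted p under 0.05. IGHV3-1 was the gene of 2.4% ± 1.67 of the expanded and 2.82% ± 0.639 of the single-read CDR3s in the HuD animals, beside 16% and 5.07% in the DNP animals. That difference between the antigens was not tested.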

How the data were processed

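Immunoglobulin heavy chain amplicons of spleen cells were measured in 10 rats. The authors joined mates in PEAR, merged copies of a tag in MIGEC (minimum of 1 copy per tag) and annotated the outcome in High-VQuest, with no version given in the sources. Each deposited line holds 1 such sequence and a count of its sequenced copies. A line was used as 1 read and the count only to select reads with at least 2 copies. The deposited gene names, segments and productive call were used as they stand.

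For each animal the reads per CDR3 were counted, and the first 50 and all with 1 read were taken. The IGHV and IGHJ gene of a CDR3 was the one named first in most of its reads. IGHV genes with at least 100 productive DNP reads were tested with edgeR 4.0.16 (quasi-likelihood, animal as block, library size the number of CDR3s, no further scaling), and residue percentages with limma 3.58.1 with trend and block. Both fits pool information on spread across the genes or residues tested. P-values were adjusted after Benjamini-Hochberg, at a threshold of 0.05. Other measures were tested within animals by exact sign-flip permutation, with a smallest two-sided p of 0.0625, and between antigens over 252 sets, with a smallest of 0.00794. The reference for residue differences took genes with at least 100 HuD reads (75 genes). Expected numbers of variants were computed without drawing, for 200 reads. Both tests across features were tested on simulated data. Both sides come from the same animal and library, so the block pairs them by design; animals are separate rats, said to be littermates, and no other label groups them. Values after ± are SDs over animals or SEs of the fits, and the upper limit given for a count of 0 covers counting error only.

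Alternatives were other numbers of CDR3s, other single-read sets, thinning to 60647 reads, joined lineages and leaving out each animal, with DESeq2 1.42.0 as another test; ranking by tag ends, at least 10 reads for presence, leaving out the 4 directions, and FR differences within IGHV genes or for the main gene were chosen after seeing the data. Named genes were those called, to a limit of 12, and the 5 with the highest mean share on each side; named residues those called and the 4 with the largest difference; named CDR3s the first 3, the last inside and first outside, repeats, extremes of framework number and first neighbours. Glutamate, methionine, tyrosine and the CDR3s with tryptophan at the third position were chosen after their values were seen. The members and lists were chosen with earlier results of these data known. Figures were drawn with matplotlib 3.10.9.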

Additional observations from a re-analysis of the deposited data

Results flagged for a closer look

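Of 12 differences examined over the 5 DNP animals, 3 had 1 animal far from the others, its gap to the next being over 0.71 of the whole range. Chance gives such a value in about 1 of 20 groups. The CDR3 length difference of DNP5 was −1.56 residues, at 0.831 of the range. The hydropathy difference of DNP3 was −0.0961, the only negative one, at 0.868 of the range. In DNP3 the share of read pairs with the same FR1 to FR3 was 11.9 percentage points lower for the expanded than for the two-read CDR3s (−11.9), at 0.784 of the range. DNP3 had the fewest reads and the highest share of reads in its 50 CDR3s, 46.7%. The part of these in its values was not tested.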

How the results depend on the processing

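The higher share of IGHV3-1, the higher tryptophan percentage, the lower mean CDR3 length, the IGHJ3 and IGHJ4 differences, the higher net charge and the presence in other animals kept their direction in each alternative run. The number of higher IGHV genes was 3 with 100 CDR3s and with DESeq2. It was 2 with single-read CDR3s without a neighbour, with single reads of at least 2 copies and with ranking by tag ends. With no replicate block, and so without pairing the sides of an animal, it was 0, and the fold change of IGHV3-1 was 1.66; the cause was not tested. The number of lower genes, 0 as reported, was 2 with 100 CDR3s, 3 with single reads of at least 2 copies, 5 with TMMwsp scaling, 26 with limma and 33 when reads were counted, and the cause was not tested. The number of higher residues was 0 with 20 CDR3s and 3 with single reads of at least 2 copies (tryptophan, proline and phenylalanine). The number of lower residues was 1 with 100 CDR3s and with joined lineages, and 6 with single reads of at least 2 copies. The tryptophan call held without the block.

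IGHJ1 went from −0.29 to 0.91 with 100 CDR3s, 3.87 with single reads of at least 2 copies, 0.304 after thinning, 0.699 with joined lineages and 0.11 with ranking by tag ends. IGHJ2 turned to −2.18 with single reads of at least 2 copies. Hydropathy turned to −0.0186 with 20 CDR3s and to −0.000622 with joined lineages. The FR1 to FR3 difference turned to −0.384, and that of CDR1 and CDR2 to −0.709, with the most frequent framework of an expanded CDR3. CDR1 and CDR2 also turned to −0.887 with single reads of at least 2 copies and to −1.55 with reads of at least 2 copies on both sides. Such reads also turned the shared FR1 to FR3 of read pairs to 0.294 points. Presence in another DNP animal, 42.6 points higher as reported, was 8.76 points higher with at least 10 reads required and 12.7 without the 4 directions.

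Without 1 animal, IGHV genes called higher numbered 1 to 2 (2 without DNP3, with IGHV3-3) and residues called lower 0 to 1 (1 without DNP5, methionine), and the IGHJ1 difference ran from −2.09 to 2.11. IGHV3-1 stayed between 1.49 and 1.8 and tryptophan between 1.75 and 2.51 points. Over the other settings the fold change of IGHV3-1 was 3.15 with single reads of at least 2 copies and 1.02 with TMMwsp scaling, and the tryptophan difference was 3.6 points without the first 2 and last 3 residues. CDR1 and CDR2 ran from 0.373 to 1.45 without 1 animal. For the differences between antigens the ranges were 3.61 to 7.81 for IGHJ1, −7.52 to −3.24 for IGHJ3, −5.77 to 0.278 for IGHJ4 and −0.256 to 0.109 for length. They were −0.0813 to 0.0379 for charge, −0.0449 to 0.0289 for hydropathy, −0.39 to 3.8 for presence under the other antigen, −2.81 to −1.79 for CDR1 and CDR2 and −0.235 to 2.78 for read pairs. Thinning turned the antigen difference in charge to 0.00738. That in presence under the same antigen was 1.5 with at least 10 reads and 1.16 without the 4 directions, and under the other antigen 2.29 with at least 10 reads. An expanded side of 50 CDR3s limits each share to steps of 2 points.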
